A study of Mus musculus with 4 samples.

Results

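The RGD-binding integrins and their ligands were described here by the DNA methylation of 10 mouse genes. They are the alpha subunits Itga8, Itgav and Itga5, the beta subunits Itgb1, Itgb3, Itgb5, Itgb6 and Itgb8, and the matrix ligands Npnt (nephronectin) and Vtn (vitronectin). The genes were taken by name, and Itga8 and Npnt are among those the study names. For each gene the deposited entries for promoter, 5′ UTR, exons, introns and 3′ UTR were collected, together with every CpG island and island shore that overlaps the gene. This gave 52 entries with a methylation level in all libraries, out of 106689 such entries of the same 7 classes. C3H10T1/2, a mouse embryo line that behaves as mesenchymal stem cells (MSCs), was transfected for 48 h with control siRNA (NC) or with siRNA against DNMT1 (siDNMT1), the enzyme that copies methylation onto newly made DNA. Cells were then left uninduced or induced for osteoblast (OB) differentiation for 3 days with ascorbic acid (50 μM), β-glycerophosphate (10 mM) and dexamethasone. Each of the 4 conditions was read by reduced representation bisulfite sequencing (RRBS) in 1 library. No replicate was available, so a difference between levels below is a difference between 2 libraries and carries no p-value.

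Integrins are cell surface receptors made of 1 alpha and 1 beta chain that hold cells to the extracellular matrix and signal from it. Those described here recognise the RGD motif, a short peptide shared by fibronectin, vitronectin, nephronectin and the latent form of TGFβ. The α8 chain pairs with β1 and binds nephronectin, a matrix protein known from kidney development and made by osteoblast precursors, while α5 with β1 is the classical fibronectin receptor. The αv chain pairs with several beta chains. CpG islands at gene starts are usually free of methylation in somatic cells, whereas gene bodies and CpG-poor sequence are usually methylated.

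The methylation level is the fraction of methylated CpG cytosines in an entry, from 0 to 1, as the authors deposited it. The values come without read counts, so the depth behind a level is unknown. The libraries listed between 108116 and 109582 entries of the 7 classes, with the fewest for siDNMT1 OB cells. Of the 50 possible gene entries of the members, 39 were listed. The promoter of Itgb8, the gene body of Vtn and the 3′ UTRs of all members but Itga5, Itgb3 and Itgb5 had no level. Listing went with the number of CCGG sites, the palindrome cut by MspI, the enzyme commonly used for RRBS. Among GENCODE protein-coding promoters, 17.2% of 4135 with no CCGG in the 2 kb upstream had a level, 35.4% of those with 1 site, 73.8% of those with 2 to 4 and 95.5% of those with 5 or more. The Itgb8 promoter has 1 such site, and that of Itgb6 has 0 but was listed. Neither expression nor DNMT1 itself was measured in these libraries, so the knockdown and the cell type could not be checked here.

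The sequences just upstream of 5 members show how differently CpGs are packed at their starts. They are from RefSeq on GRCm38.p6 (the assembly of mm10), 5′ to 3′, with each CpG in capitals, and end just before the RefSeq or the GENCODE start, whichever lies further upstream. The RefSeq table used here holds 9 of the members. Itgb1 and Itga8 are shown as genes with almost no promoter methylation, Npnt as one named by the study, Itga5 as the most methylated promoter, and Itgb6 as one without an island. The windows are chr8:128685404-128685653 on the plus strand for Itgb1, and on the minus strand chr2:12301945-12302194 for Itga8, chr3:132950292-132950541 for Npnt, chr15:103366792-103367041 for Itga5 and chr2:60722644-60722853 for Itgb6.
Itgb1: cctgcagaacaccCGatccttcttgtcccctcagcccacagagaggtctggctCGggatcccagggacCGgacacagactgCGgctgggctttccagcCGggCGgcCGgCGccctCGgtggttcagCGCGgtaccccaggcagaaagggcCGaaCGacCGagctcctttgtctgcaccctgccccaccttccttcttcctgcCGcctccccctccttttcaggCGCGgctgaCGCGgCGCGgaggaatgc
Itga8: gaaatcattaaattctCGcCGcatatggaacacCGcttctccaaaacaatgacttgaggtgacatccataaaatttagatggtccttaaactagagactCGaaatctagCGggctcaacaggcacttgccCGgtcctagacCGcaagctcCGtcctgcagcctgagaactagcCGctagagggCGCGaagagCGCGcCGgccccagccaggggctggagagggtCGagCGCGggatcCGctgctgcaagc
Npnt: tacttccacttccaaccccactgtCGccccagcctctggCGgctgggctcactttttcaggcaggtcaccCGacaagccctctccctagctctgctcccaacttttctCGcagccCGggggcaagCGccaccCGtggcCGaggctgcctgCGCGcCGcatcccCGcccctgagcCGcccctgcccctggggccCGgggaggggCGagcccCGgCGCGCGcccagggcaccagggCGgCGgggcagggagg
Itga5: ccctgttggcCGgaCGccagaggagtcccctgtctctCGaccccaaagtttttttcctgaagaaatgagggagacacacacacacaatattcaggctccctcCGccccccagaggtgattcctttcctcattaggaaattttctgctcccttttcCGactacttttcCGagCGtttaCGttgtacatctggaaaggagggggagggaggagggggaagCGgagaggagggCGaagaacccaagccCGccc
Itgb6: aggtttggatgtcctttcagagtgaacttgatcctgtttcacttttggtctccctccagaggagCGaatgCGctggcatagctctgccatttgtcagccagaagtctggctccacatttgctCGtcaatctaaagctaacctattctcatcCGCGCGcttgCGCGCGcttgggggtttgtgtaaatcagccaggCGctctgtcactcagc
The windows of Itgb1 and Npnt hold 21 CpGs each in 250 bases, that of Itga8 holds 18 and that of Itga5 holds 11. The window of Itgb6, which stops at the GENCODE exon after 210 bases, holds 10. Of the 24 CpGs in the whole 2 kb promoter of Itga5, 8 lie in the island across its start and 16 outside it, while at Itgb1 28 of 46 lie in the island.

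Promoter levels of the members ran from almost 0 to a mean of 0.651. Itgb1, the common beta chain, had the lowest promoter, with levels of 0.0104 in NC uninduced, 0.0145 in siDNMT1 uninduced, 0.0114 in NC OB and 0.0114 in siDNMT1 OB cells. Only 2.42% of all promoters had a mean level as low. Itga5 had the highest, with 0.684 and 0.645 in uninduced NC and siDNMT1 cells and 0.670 and 0.604 in OB cells, and 86.2% of all promoters lay at or below it. The order from low to high was Itgb1, Itga8, Itgav, Itgb5, Itgb3, Npnt, Vtn, Itgb6 and Itga5. In that order the ranges over the 4 libraries overlapped for Itgav and Itgb5 (means 0.0354 and 0.0440). They also overlapped for Itgb3 (0.0839 to 0.125) and Npnt (0.0914 to 0.122), and Vtn (0.232 to 0.286) and Itgb6 (0.269 to 0.433). The other neighbours did not overlap.

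The most methylated member promoters were the poorest in CpGs, and the richest, that of Vtn, was not the least methylated. The observed to expected CpG ratio of the 2 kb upstream was lowest for Itga5 (0.183) and Itgb6 (0.227), the most methylated of the member promoters. It was highest for Vtn (0.597), whose promoter had an intermediate mean level of 0.261. Of the 87 CpGs upstream of Vtn, which encodes a serum and matrix adhesion protein, 40 lie in an island at chromosome 11, 78497022 to 78497463, that lies within the oppositely transcribed Sarm1. That island had levels of 0.301, 0.296, 0.257 and 0.243 in NC uninduced, siDNMT1 uninduced, NC OB and siDNMT1 OB cells. In each library this was close to the level of the Vtn promoter entry. The shore next to the island (78497464 to 78499464) covers the rest of the promoter and the start, and its mean level was low, at 0.0430. Across the 9 member promoters the rank correlation of ratio and mean level was -0.45, and across 20113 promoters it was -0.41. Both are descriptions over promoters of the same 4 libraries.

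**Figure D1:**
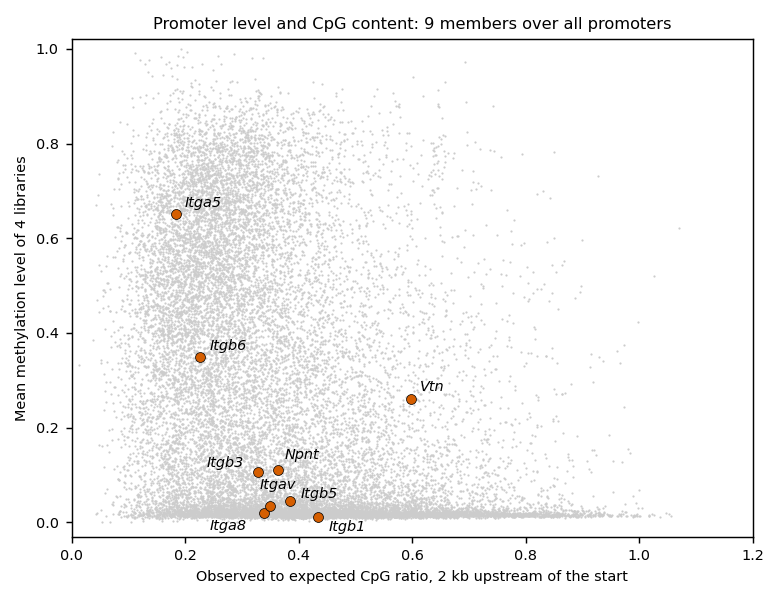
Mean methylation level over 4 libraries (vertical axis) against the observed to expected CpG ratio of the 2 kb upstream of the GENCODE start (horizontal axis), with 20113 promoters in grey and 9 members in orange. Itga5 and Itgb6 lie at the CpG-poor, methylated side, Vtn at a ratio of 0.597 and a level of 0.261, and Itgb1 at the bottom with 0.0119.

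Islands lie across the GENCODE start of 7 members, and all 7 were low in every library, between 0.00963 (Itga5, NC OB) and 0.0762 (Npnt, NC uninduced). The sequence beside them was not uniformly low. Downstream of the start, the shore of Itga8 had levels from 0.569 to 0.597 and that of Npnt from 0.450 to 0.649, while those of Itga5 (0.0185 to 0.0256) and Itgb5 (0.0201 to 0.0451) stayed near their islands. A shore is the sequence of about 2 kb next to an island. Itgb6, the beta chain known from epithelia, was the 1 member besides Vtn with no island overlapping the gene.

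**Figure D2:**
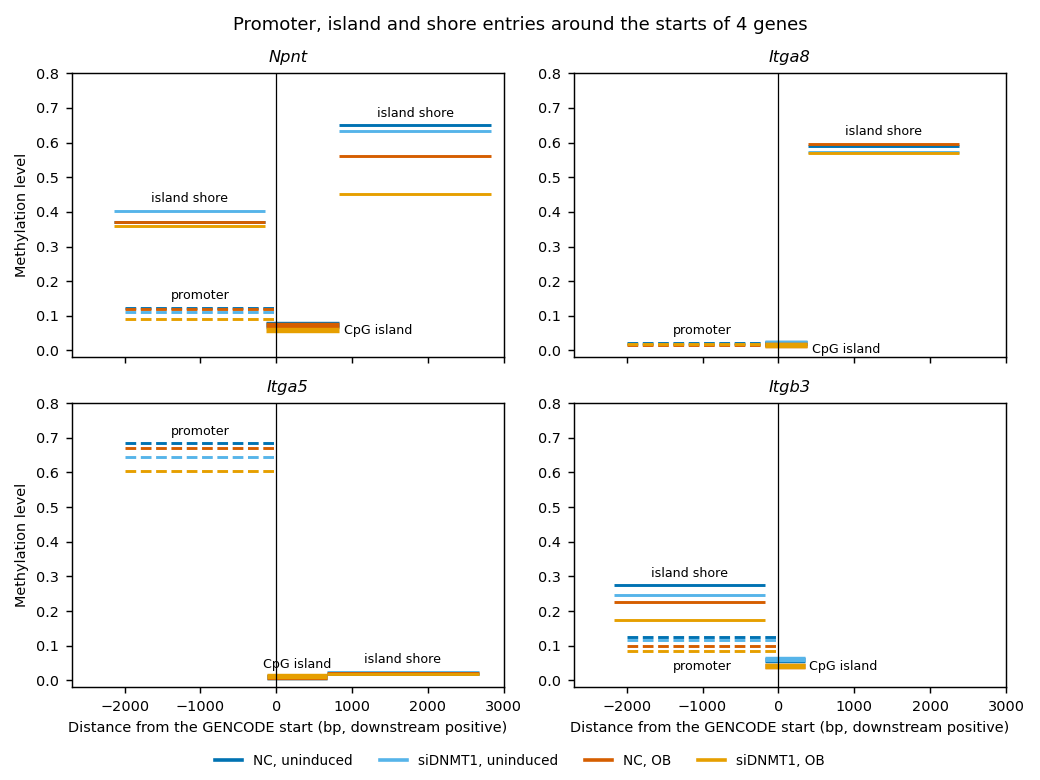
Levels (vertical axis) of promoter (dashed), CpG island (thick) and island shore (thin) entries of Npnt, Itga8, Itga5 and Itgb3 over their span, as distance in bp from the GENCODE start, 1 colour per library. Each line is 1 deposited level for the whole span, and the NC uninduced level of the upstream Npnt shore (0.372) is hidden under the NC OB level (0.370). The downstream Npnt shore spreads from 0.450 to 0.649 while the island next to it lies between 0.0599 and 0.0762.

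The alpha subunits differed in where methylation lay. Itga8 (ENSMUSG00000026768, minus strand of chromosome 2, 12106632 to 12301922) encodes the nephronectin receptor chain. Its promoter had levels of 0.0220 and 0.0199 in uninduced NC and siDNMT1 cells and 0.0165 and 0.0173 in OB cells. The island across its start (12301538 to 12302095) lay at 0.0213, 0.0223, 0.0171 and 0.0158 in the same order. Promoter and island were thus near 0 in all 4 libraries. These are levels of whole entries, whereas the study named Itga8 after induction from differentially methylated regions, which is another measure. The Itga8 promoter also lies within the antisense gene E030013I19Rik, and 1 level covers both. Its introns were at 0.549 and 0.565 before and 0.557 and 0.527 after induction. The siDNMT1 minus NC difference of the introns was 0.0166 in uninduced and -0.0300 in OB cells, and 27.7% of all intron entries differed at least as much after induction.

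Itgav (ENSMUSG00000027087, plus strand of chromosome 2, 83724397 to 83806916) encodes the αv chain, and Itga5 (ENSMUSG00000000555, minus strand of chromosome 15, 103344286 to 103366763) encodes the α5 chain. The Itgav promoter was low, with 0.0297 and 0.0440 in uninduced NC and siDNMT1 cells and 0.0322 and 0.0357 in OB cells. Its introns stood at 0.409, 0.405, 0.455 and 0.415 in NC uninduced, siDNMT1 uninduced, NC OB and siDNMT1 OB cells, so that the NC OB library was the highest. At Itga5 the heavily methylated promoter differed by -0.0391 before and -0.0669 after induction, and 9.71% and 5.17% of all promoters differed as much. The 3′ UTR of Itga5 had levels of 0.748, 0.720, 0.734 and 0.664 in the same order of libraries. It differed by -0.0284 and -0.0694, and 8.80% of 3′ UTR entries differed as much after induction. The Itga5 island (103366095 to 103366886), at 0.0113, 0.0104, 0.00963 and 0.0117, lay too near 0 for a lowering of that size to be seen.

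Among the beta subunits, Itgb1 (ENSMUSG00000025809, plus strand of chromosome 8, 128685654 to 128733200) was unmethylated in all its listed entries. Its 5 entries lay between 0.00809 and 0.0145 in all libraries, introns and exons included. The introns of Itgb1 were lower than nearly all others, with 0.628% of intron entries at or below its mean. Which of the 233 intron CpGs in the genome were read is not known. Itgb5 (ENSMUSG00000022817, plus strand of chromosome 16, 33829665 to 33949338), a vitronectin receptor chain, had the usual opposite ends. Its 5′ UTR lay between 0.0132 and 0.0143 and its 3′ UTR between 0.773 and 0.807. The largest siDNMT1 minus NC difference of Itgb5 was -0.0282, in the introns of uninduced cells, which had 0.535 with NC and 0.506 with siDNMT1.

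Itgb3 (ENSMUSG00000020689, plus strand of chromosome 11, 104608000 to 104670476) encodes the β3 chain of the vitronectin receptor. Its promoter had 0.125 and 0.115 in uninduced NC and siDNMT1 cells and 0.0981 and 0.0839 in OB cells. The siDNMT1 library was lower than its NC partner both times, with differences of -0.00979 and -0.0142, and the OB libraries were both below the uninduced ones. Of all promoters, 44.8% and 41.8% differed as much between siDNMT1 and NC. The upstream shore of Itgb3 (104605827 to 104607826), which does not reach the gene, held the same order at higher levels, 0.274, 0.245, 0.227 and 0.173. Its difference of -0.0542 after induction was larger than that of any entry inside Itgb3, and 10.3% of shores differed as much. The 5′ UTR, with 12 CpGs in the annotation, had 0.0490, 0.0725, 0.0385 and 0.00649, and its siDNMT1 minus NC difference changed sign from 0.0235 to -0.0321.

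Itgb8 (ENSMUSG00000025321, minus strand of chromosome 12, 119158022 to 119238802) encodes the β8 chain, which with αv activates latent TGFβ. It had the only member island that was heavily methylated. This island (119237787 to 119238102) lies in exon sequence, from 700 to 1015 bp downstream of the GENCODE start and shortly after the RefSeq start at 119238276. It had levels of 0.662 in NC uninduced, 0.616 in siDNMT1 uninduced, 0.591 in NC OB and 0.549 in siDNMT1 OB cells, and 88.3% of all islands had a mean level at or below it. The differences of siDNMT1 minus NC were -0.0453 before and -0.0421 after induction, and 2.87% and 4.43% of islands differed as much. The 5′ UTR entry of Itgb8 held the same values as this island in all libraries (to within 1e-09) and adds nothing to it. The exons followed the same order, with 0.631, 0.591, 0.567 and 0.539, and overlap the island.

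Itgb6 (ENSMUSG00000026971, minus strand of chromosome 2, 60598292 to 60722643) encodes the β6 chain, which also activates latent TGFβ with αv. Its 5′ UTR and exons had the 2 largest siDNMT1 minus NC differences among the member entries, both in uninduced cells and in opposite directions. The promoter was highest in the NC uninduced library (0.433), followed by siDNMT1 uninduced (0.375), NC OB (0.317) and siDNMT1 OB (0.269). The 5′ UTR had 0.357, 0.208, 0.324 and 0.352 in that order of libraries, so that siDNMT1 uninduced alone stood low. The exons had 0.494, 0.630, 0.482 and 0.573, with both siDNMT1 libraries above both NC libraries. The annotation holds 11 CpGs in the 5′ UTR of Itgb6 and 23 in its 2 kb promoter. The introns, with 1049 CpGs in the genome, varied less, at 0.684, 0.697, 0.643 and 0.620.

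Of the ligands, Npnt (ENSMUSG00000040998, minus strand of chromosome 3, 132881745 to 132950291) was lowest in the siDNMT1 OB library in all its 6 entries. The promoter had levels of 0.122 in NC uninduced, 0.111 in siDNMT1 uninduced, 0.120 in NC OB and 0.0914 in siDNMT1 OB cells. The siDNMT1 minus NC difference was -0.0113 before induction, the state for which the study names Npnt, and -0.0281 after it. Differences as large were seen at 40.9% and 23.5% of all promoters. These are levels of the whole promoter entry, whereas the study named Npnt from differentially methylated regions, which is another measure. The introns had 0.169, 0.183, 0.159 and 0.123, and the exons 0.0418, 0.0364, 0.0464 and 0.0308.

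The shore downstream of the Npnt island carried the largest change of the ligand genes. It runs from 132947461 to 132949460, starts 831 bp after the GENCODE start and lies in intron sequence except for 101 bp of exon. Its level was 0.649 in NC uninduced, 0.633 in siDNMT1 uninduced, 0.563 in NC OB and 0.450 in siDNMT1 OB cells. The 2 OB libraries were below the 2 uninduced ones, and siDNMT1 OB was the lowest. The siDNMT1 minus NC difference was -0.0162 before and -0.112 after induction, and 1.93% of all shores differed as much as the latter. The shore on the upstream side (132950434 to 132952434) lies mostly within the 2 kb promoter (132950292 to 132952291) and is not a separate reading from it. This shore had 0.372 and 0.403 in uninduced NC and siDNMT1 cells and 0.370 and 0.3595 in OB cells. There too siDNMT1 OB was the lowest, but the siDNMT1 minus NC difference after induction was -0.0110, and 60.9% of shores differed as much. Vtn (ENSMUSG00000017344, plus strand of chromosome 11, 78499091 to 78502324) had only a promoter and a shore level. The promoter had 0.286, 0.282, 0.245 and 0.232, and the shore across the start 0.0503, 0.0376, 0.0271 and 0.0569.

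**Figure D3:**
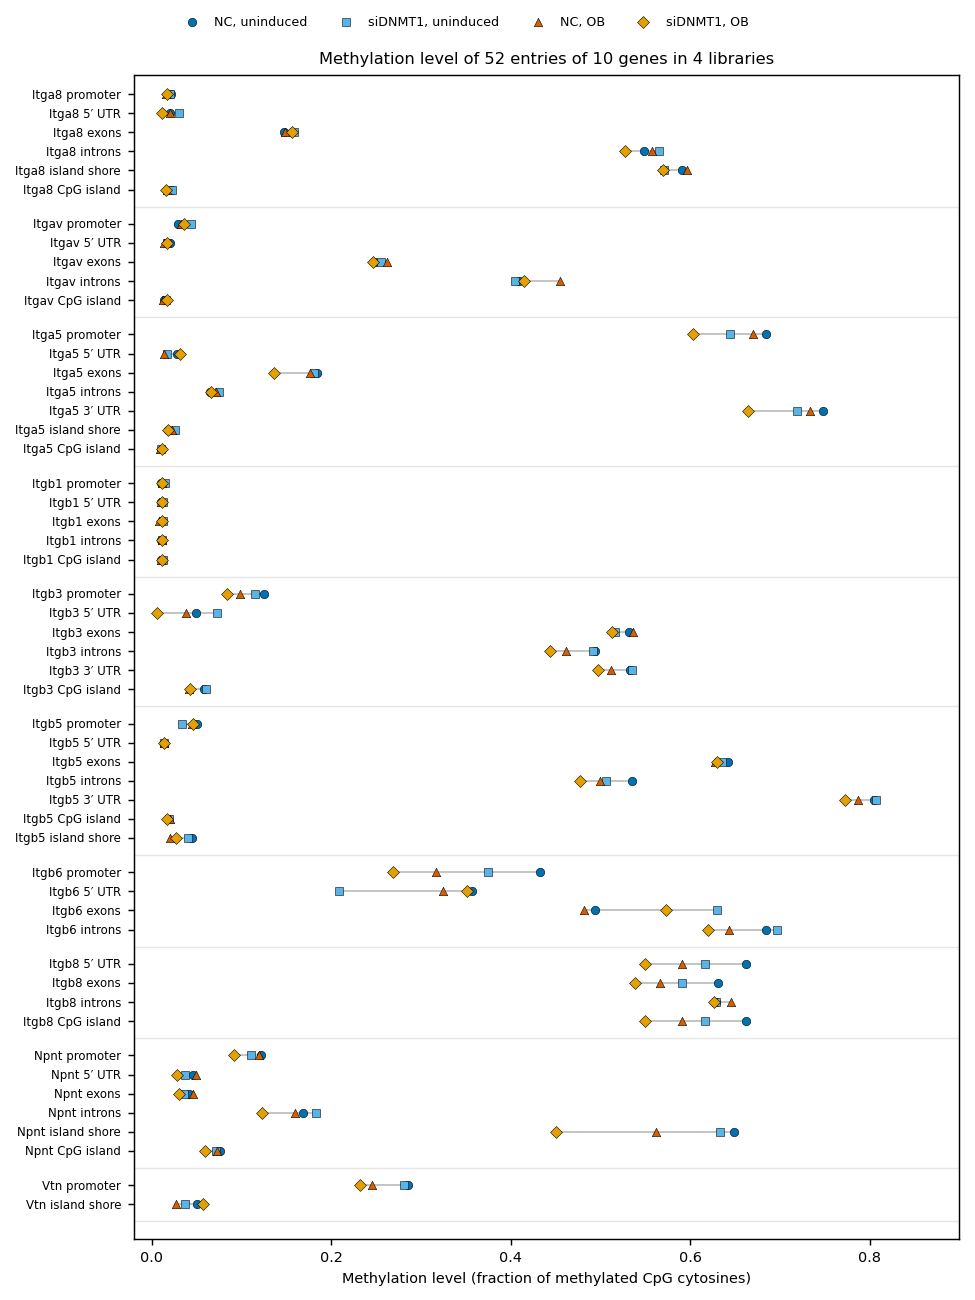
Methylation level (horizontal axis) of the 52 entries of the 10 genes, 1 row per entry and 1 marker per library, with a grey line over the range. Promoters, 5′ UTRs and islands of Itga8, Itgav, Itgb1 and Itgb5 sit near 0, and the 2 widest ranges are those of the Npnt shore (0.450 to 0.649) and of the Itgb6 promoter (0.269 to 0.433).

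The siRNA comparison asks whether losing DNMT1 lowers methylation at these genes. A change was counted from a difference of 0.1. In uninduced cells 1 of the 52 entries fell, the Itgb6 5′ UTR (difference of -0.148), which is 1.92% of the entries against 0.777% of all 106689. The exons of Itgb6 rose by 0.136, again 1.92%, against 0.683% of all. In OB cells 1 entry fell, the Npnt shore with a difference of -0.112 (1.92%, against 1.35% of all), and 0 rose (against 0.681% of all). These are counts of 0 or 1 and say nothing particular about the members. From a difference of 0.05, 2 entries were lower (3.85%, against 3.56%) and 1 higher (1.92%, against 2.6%) before induction. After induction 3 were lower (5.77%, against 7.07%) and 1 higher (1.92%, against 2.36%).

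Most member differences were small, and their direction followed that of all entries. In uninduced cells 29 of 52 entries were lower with siDNMT1 (55.8%, against 54.6% of all), with a median difference of -0.00212, against -0.00115 of all. In OB cells 34 were lower (65.4%, against 65.7% of all), with a median of -0.0128, against -0.00511. This median rested on single genes, being -0.00483 without Npnt and -0.00724 without Itgb3 or without Itgb8. It was -0.00318 when the median difference over all entries of the same class was subtracted from each difference. The 27 member entries with a mean level of at least 0.1 carried this difference, with 23 lower after induction (85.2%, against 74.5% of all such entries) and a median of -0.0225, against -0.0157. The 25 entries below that level had a median of 0.000550. By class, the introns of all 9 members with an intron level were lower with siDNMT1 after induction, with a median of -0.0219, against 74.4% lower and a median of -0.0131 over all introns. By share of lower entries, promoters, exons, 5′ UTRs, islands and shores lay near or below the background. Lower were 5 of 9 promoters (55.6%, against 64.0% of all), 5 of 9 exon entries (against 66.9%) and 5 of 9 5′ UTRs (against 54.2%). So were 4 of 8 islands (50.0%, against 58.5%) and 3 of 5 shores (against 66.7%). All 3 listed 3′ UTRs were lower (against 78.3%). Medians were more negative than over all such entries for promoters (-0.0131, against -0.00371), exons (-0.0156, against -0.00690) and 5′ UTRs. They were less negative for islands, shores and 3′ UTRs. Entries of 1 gene overlap and are not independent.

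**Figure D4:**
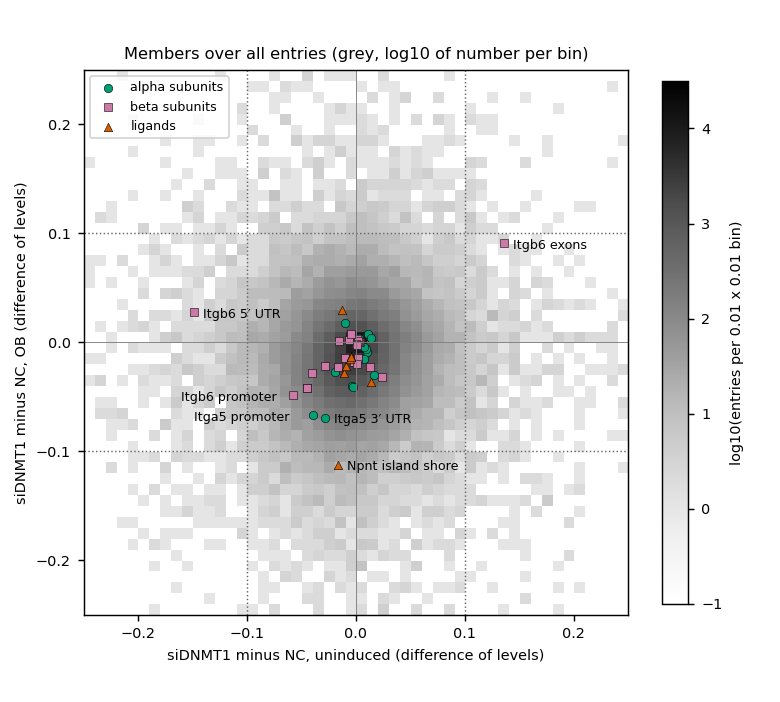
Difference of levels, siDNMT1 minus NC, in uninduced (horizontal axis) and OB cells (vertical axis), with the 52 member entries by role over all entries in grey (log10 of the number per 0.01 by 0.01 bin, 410 entries outside the axes). Dotted lines mark 0.1. The Itgb6 5′ UTR (-0.148) and exons (0.136) pass it in uninduced cells and the Npnt shore (-0.112) in OB cells.

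OB induction was read within each siRNA. The OB libraries had 3 days of induction after the 48 h of transfection, and no further culture is given for the uninduced ones. Induction thus cannot be told apart from culture time and time since transfection. The same holds for siRNA differences compared before and after induction. In NC cells 1 entry fell by at least 0.1, the Itgb6 promoter with a difference of -0.116 (1.92%, against 1.37% of all), and 0 rose (against 0.756%). In siDNMT1 cells 2 fell (3.85%, against 2.41%), the Npnt shore (-0.183) and the Itgb6 promoter (-0.106). The 5′ UTR of Itgb6 rose by 0.144 (1.92%, against 0.872%). The Itgb6 promoter was thus lower in the OB than in the uninduced library with either siRNA. Of the 52 entries, 34 were lower after induction in NC cells (65.4%, against 63.4% of all) and 45 in siDNMT1 cells (86.5%, against 73.4% of all). The median differences were close to those of all entries, with -0.00504 in NC cells (against -0.00363) and -0.00894 in siDNMT1 cells (against -0.00808). These comparisons share libraries with the siRNA comparisons and with each other through them, so they are not separate evidence.

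The siDNMT1 OB library was the lowest of the 4 at 31 of the 52 entries (59.6%), while it was the lowest at 50.4% of all entries. Among entries with a mean level of at least 0.1 it was the lowest at 22 of 27 (81.5%, against 58.4% of all). Both counts include the 5′ UTR and the island of Itgb8, which held the same values. The siDNMT1 OB library was also the one with the fewest entries listed, and the part of depth in these counts was not tested. The siDNMT1 minus NC difference was lower after than before induction at 35 entries (67.3%, against 61.3% of all), with a median gap of -0.00532, against -0.00384 over all. The largest gap was 0.176 at the Itgb6 5′ UTR, and the Npnt shore had -0.0960.

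The other genes of integrin adhesion showed few changes of 0.1 or more too. The subunit list held 19 genes, other integrin subunits together with the integrin beta-like gene Itgbl1. Of its 71 gene entries, 1 was lower and 2 were higher with siDNMT1 by 0.1 or more before induction. After induction 2 were lower and 0 higher. Over all gene entries 0.852% fell and 0.692% rose before, and 1.44% and 0.725% after induction. The exons of Itga2, a collagen receptor chain, fell from 0.461 to 0.240 in uninduced cells. The promoter and exon entries of Itgbl1 held the same 4 levels. They went from 0.374 with NC to 0.566 with siDNMT1 before induction, and from 0.464 to 0.273 after it. These entries make up the 2 rises before and the 2 falls after induction in the list, so the same levels were counted 2 times. Of 63 entries of 18 other RGD or basement membrane ligand genes, 0 changed before induction and 1 rose after it, the promoter of Lama1, a laminin chain, from 0.378 to 0.567. Of 53 entries of 15 focal adhesion genes, 0 changed before induction. After it the introns of Itgb1bp1, which encodes a protein binding the β1 tail, fell from 0.356 to 0.226, and the exons of Tln1, encoding talin, rose from 0.224 to 0.324. The median difference after induction was -0.0210 for the subunit list, -0.00557 for the ligands and -0.00326 for the focal adhesion genes. Over all entries of the 7 classes it was -0.00511, with 65.7% lower. That background includes islands and shores, which the lists do not hold. By gene class, the median over all entries ran from -0.000697 (5′ UTRs, 54.2% lower) to -0.0200 (3′ UTRs, 78.3% lower). In the subunit list 58 of 71 entries were lower, against 41 of 63 for the ligands and 35 of 53 for the focal adhesion genes.

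Highly methylated promoters occurred among these genes as well. In the subunit list, 5 of 15 listed promoters had a mean level of at least 0.5, led by Itga10 (0.725), a collagen receptor chain, and Itgb4 (0.695), the hemidesmosome chain. Among the ligands Egfl6 led, a nephronectin-related protein gene on the X chromosome, with 0.693 and 0.616 in uninduced NC and siDNMT1 cells and 0.597 and 0.654 in OB cells, followed by Lama1. Among the focal adhesion genes the highest promoters were those of Pxn, encoding paxillin (mean 0.603), and of the kinase gene Src. The Src promoter had 0.380, 0.336, 0.283 and 0.238 in NC uninduced, siDNMT1 uninduced, NC OB and siDNMT1 OB cells. The promoters of Itgb3, Itgb6 and Vtn had the same order. So did the medians over all promoters (0.191, 0.188, 0.174 and 0.164), so the order is not particular to these genes.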

How the data were processed

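RRBS of 4 C3H10T1/2 libraries was used, 1 per condition. The authors filtered reads with Trimmomatic (0.36) and aligned them to mm10 with Bismark (0.16.3). The library methods describe sonication and name no restriction enzyme. The authors deposited per region the fraction of methylated CpG cytosines, with no read counts, so depth is unknown. The coverage minimum, the weighting of cytosines and the annotation release are not given in the sources used here. Members were found by Ensembl identifier in GENCODE vM21, and islands and shores by overlap with the gene. Starts in the files count from 0 and are printed from 1. At those positions each of 14354 islands begins and ends with CG in GRCm38.

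Differences between levels were computed over entries with a level in all 4 libraries. Changes were counted from 0.1, beside the same count over all entries. The study's DMR tool, DSS, needs read counts and was not used. With 1 library per group there is no test. The members, lists and thresholds were chosen with earlier results of these data known. All members are named. The lists were of other subunits (with the beta-like Itgbl1), ligands and focal adhesion genes. From them, entries changed with siDNMT1 (6, of at most 8) and the 2 most methylated promoters per list are named. Of 21 listed ligand symbols, Cyr61 is an older name of Ccn1. Repeats carry no coordinates and were left out. The counting code was checked on simulated data. Python 3.11.15, numpy 2.4.6, pandas 2.3.3 and matplotlib 3.10.9 were used.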

Additional observations from a re-analysis of the deposited data

How the results depend on the processing

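With 1 library per condition no replicate could be left out, and with no read counts no coverage minimum could be varied. No paired analysis was possible because each group has 1 library. The counts of members changed by 0.1 or more rest on 2 genes. Without Itgb6, 0 entries fell and 0 rose with siDNMT1 in uninduced cells, 0 fell with OB induction in NC cells, and 1 fell and 0 rose with induction in siDNMT1 cells. Without Npnt, 0 fell with siDNMT1 in OB cells and 1 fell with induction in siDNMT1 cells. With gene entries alone these 2 counts were also 0 and 1. From a difference of 0.2, 0 entries changed in any comparison. From 0.05, 2 fell with siDNMT1 before induction, and 3 fell and 1 rose with it after induction. With induction, 5 fell in NC (9.62%, against 7.24% of all) and 10 in siDNMT1 cells (19.2%, against 11.8%). Both counts with induction include the 5′ UTR, island and exons of Itgb8. That 5′ UTR and island held the same values and the exons overlap them, so the same sequence was counted more than 1 time. Restricted to entries averaging 0.1 or more, median differences were -0.00601 and -0.0225 with siDNMT1 before and after induction, and -0.0143 and -0.0380 with induction in NC and siDNMT1 cells. Each difference was also centred by subtracting the median difference over all entries of its class. For induction in siDNMT1 cells this gave 1 entry that fell and a median of -0.000880 in place of -0.00894. The same step took the siDNMT1 median in OB cells from -0.0128 to -0.00318, and leaving out Npnt took that median to -0.00483. Without Npnt the uninduced median went from -0.00212 to -0.000540. The 4 medians stayed negative in the alternatives run, but their sizes did not hold. For Npnt before and Itga8 after induction, other entries around the start, some overlapping the promoter, gave siDNMT1 differences within 0.05 of the promoter's. So did centring the promoter difference on the median over all promoters. The other entries did not always have the sign of the promoter. That bound is wide beside the promoter differences themselves (-0.0113 and 0.000769), so it cannot show that they hold. In OB cells 6.87% of all promoters fell and 2.49% rose by 0.05 or more with siDNMT1. The upstream shore of Npnt had 0.0309, and the 5′ UTR, island and shore of Itga8 were negative where the promoter had 0.000769.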
